A study of Mus musculus with 20 samples.

Results

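A set of 11 control leukemias was compared with one another, all from mice that carried an Acly conditional knockout T-cell acute lymphoblastic leukemia (T-ALL) and had received corn oil, so that no deletion was induced. These make up 11 of the 20 libraries of the series, 6 from an acute arm and 5 from a survival arm, and their arm and treatment were taken from the labels. In both arms the leukemic cells, which carry the conditional Acly allele, were given by vein to sub-lethally irradiated mice. Acute controls were left to develop overt leukemia, received corn oil into the peritoneum, and their spleens were taken 72 h later. Survival controls received corn oil 48 h after transplantation and were sampled at the humane endpoint. The other 9 libraries, from mice given tamoxifen (3 mg per mouse), enter only an alternative fit. The labels do not name the driver of the leukemia, the Cre, the strain, the age or the sex of donors and hosts, nor whether all libraries descend from 1 primary leukemia. They give 1 library per replicate number without stating outright that each is a separate mouse, so p-values measure the spread between libraries.

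T-ALL arises from immature T cells of the thymus, most often with active NOTCH1 signalling, which drives MYC and, with it, growth and division. Thymocytes at that stage rearrange the T-cell receptor beta gene with the RAG recombinase and pair its product with the pre-T-cell receptor alpha chain before they rearrange the alpha gene. A leukemic spleen also holds host cells, and the tissue was only dispersed and freed of red cells by lysis, with no sort named in the labels. In such bulk RNA, fewer cells of a type and less RNA per cell cannot be told apart.

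The values are normalized counts, which estimate the reads of a gene after scaling for library depth. Each arm came in its own table, scaled separately by the authors, so arm, table and any difference in handling cannot be told apart. Each library was therefore brought to the same total over the 25120 symbols that both tables list. Deposited totals ran from 19432235 to 21109687 normalized counts per control library, and raw depth is unknown. A gene was tested where it reached 10 in at least 5 libraries, which left 16070 genes. Differences are survival less acute on the log2(value + 1) scale, and a gene was called at a Benjamini-Hochberg adjusted p under 0.05 in limma.

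Correlations between whole libraries overlapped in range within and between arms. The median Pearson correlation across genes was 0.9821 between acute libraries, 0.9787 between survival libraries and 0.9798 between the arms. The first principal component held 21.2% of the variance and set apart acute replicate 1 (score -57.3) and survival replicate 4 (-32.0) from the others (-7.30 to 25.2). The second component, with 14.95% of the variance, placed the acute libraries at -24.0 to -8.23 and the survival libraries at 1.42 to 41.4, with no overlap between the arms. The median share of a gene's variance that lay between the arms was 9.38%. Any division of these libraries into groups takes up some variance, and that level was not computed. The median SD of a gene was 0.161 log2 units among acute and 0.199 among survival controls, and 61.9% of genes had the larger SD in the survival arm.

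Different genes marked these libraries. Acute replicate 1 had 115 of 11573 genes (mean of at least 50) at least 2-fold above every other library, among them Nefl, Calb1 and S100b, which are genes of neurons and glia. Gabra6, a GABA receptor subunit of cerebellar granule cells, was at 467 there, at 44.4, 51.7, 40.2, 83.1 and 94 in acute replicates 2 to 6, and at 69, 59.3, 90.6, 126 and 71.2 in survival replicates 1 to 5. Snap25, of the synaptic release machinery, was at 789.9 there and between 90.8 and 306 in the other 10. Both genes were above 10 in every library, and acute replicate 1 was highest by a wide margin. The 24 neural genes, a list chosen after this library was seen, averaged 2.27 log2 units above their means there and -0.829 to 0.689 elsewhere. Survival replicate 4 had 35 genes 2-fold above and 29 genes 2-fold below all other libraries. Erythroid genes and Trbv1 led the first set, and genes of the neutrophil lineage (Camp, Ngp, Chil3, Cebpe) the second.

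**Figure D1:**
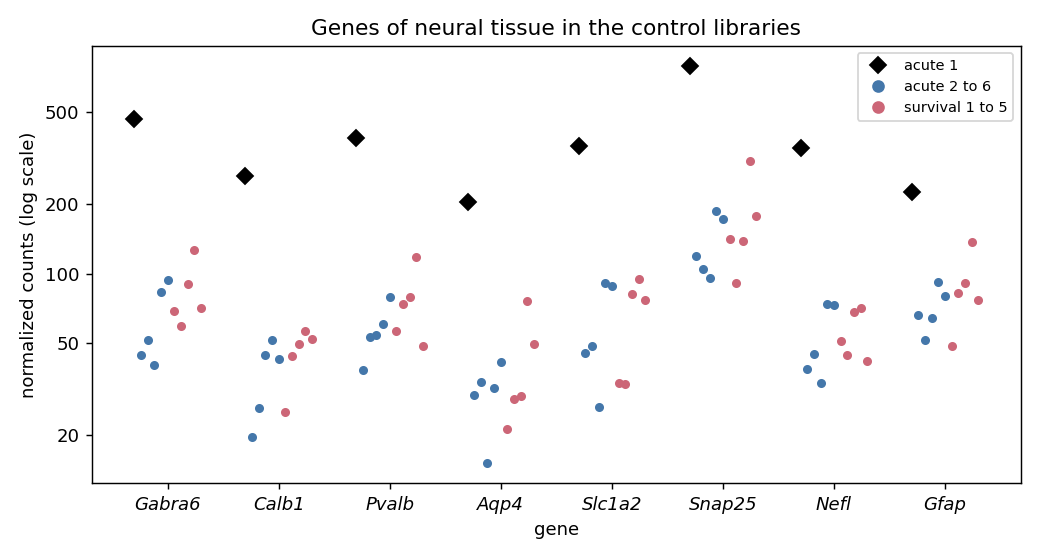
Normalized counts (log axis) of 8 genes of neural tissue in each of the 11 control libraries; diamonds mark acute replicate 1, blue points acute replicates 2 to 6 and red points the 5 survival controls. Acute replicate 1 is highest for every gene shown, with Gabra6 at 467 against 126 in the next library.

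The most abundant transcripts of these spleens belonged to protein synthesis, mitochondrial respiration, chaperones and the T-ALL program. Eef1a1, the elongation factor that carries transfer RNA to the ribosome, held 1.16% of all normalized counts (range 1.04 to 1.24% over the 11 libraries). It was followed by mt-Co1, a mitochondrial subunit of cytochrome oxidase, at 0.690%, Ptma (prothymosin alpha) at 0.629%, Eef2 at 0.617% and the chaperone Hsp90ab1 at 0.406%. Notch1 ranked 6th at 0.403% (0.343 to 0.554%), and Tcf7, a transcription factor of early T cells, ranked 15th at 0.252%. The other members of the first 20 were Rplp0, Gm19220, mt-Co2, Hspa8, Rn18s-rs5, mt-Cytb, mt-Co3, Actb, Pabpc1, Rpl3, Hnrnpa2b1, Rps3a1 and Rpl4. Gm19220 and Rn18s-rs5 are predicted or repeat loci that can share sequence with other genes, so their values are uncertain. Long transcripts collect more reads. Per kilobase of longest transcript, 10 of the 20 stayed among the first 20, Eef1a1 and Ptma were first and second, and Notch1 ranked 136th. Between 912 and 972 genes made up 50% of the counts of a library.

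Genes of the T-ALL program were abundant in both arms. Notch1 was at 88691, 73016, 69488, 72525, 71458 and 75399 in acute replicates 1 to 6 and at 75092, 89661, 71768, 100724 and 112349 in survival replicates 1 to 5. The groups overlapped, with the 2 highest values in survival replicates 4 and 5, and the difference of 0.24 (SE 0.11, adjusted p = 0.306) did not pass the test. Rag1, a subunit of the recombinase, stood at 34748 ± 2450.4 (SD, n = 6) in acute and 33247 ± 3092 (SD, n = 5) in survival controls. Ptcra, which pairs with the new beta chain, stood at 11197 ± 386 (SD, n = 6) in acute and 11182 ± 1122 (SD, n = 5) in survival controls. For the NOTCH targets Hes1 and Dtx1 the arm means were 1304 and 1278 and 16306 and 14906, with differences of -0.03 (SE 0.056, adjusted p = 0.871) and -0.14 (SE 0.12, adjusted p = 0.627). Myc was at 10264, 9646, 8556, 7610.4, 7539 and 8563 in the acute and 8011, 7233, 7642, 7209 and 8302 in the survival controls, a difference of -0.17 (SE 0.078, adjusted p = 0.318). None of Rag1 (-0.07, SE 0.067, adjusted p = 0.706), Ptcra (-0.01, SE 0.059, adjusted p = 0.975), Hes1, Dtx1 or Myc passed. Hes1 and Ptcra changed sign with the scaling. Acly, the target of the conditional allele and the enzyme that makes acetyl-CoA from citrate in the cytosol, was at 8646, 7728, 7715, 7868, 7544 and 7882 in the acute and 7616, 7537, 7206, 7656 and 8488 in the survival controls. With no deletion induced, its difference was -0.04 (SE 0.048, adjusted p = 0.777), and it turned positive, at 0.027, without the common scaling.

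Receptor transcripts named the same segments in every control of both arms. Trbv26 held 64.6% of the counts over 24 beta variable segments on average (54.0 to 67.9%) and Trbv2 held 27.9% (23.34 to 29.98%). The order of these segments was the same in all 11 libraries. Trbv1 came next, with 2.73 to 4.09% in 10 libraries and 15.2% in survival replicate 4, where it was at 1388 normalized counts against 255 to 408 elsewhere. Trbv31 was also high there, at 144 against 3.39 to 18.4 elsewhere. Among the constant segments, Trbc1 and Trbc2 held 43.9% and 38.6% of counts, and Trac, of the alpha chain, was at 0 in 5 libraries and at most 53.8 in the others. Counts of segments that share sequence can be split between them by the authors' quantification. T-cell receptor beta segments together made up 0.275% ± 0.0125 (SD, n = 6) of acute and 0.257% ± 0.0107 (SD, n = 5) of survival counts, with an exact two-sided permutation p of 0.0433 and an adjusted p of 0.118 over 8 measures of composition. Without acute replicate 1 the difference was -0.0228 percentage points, with an adjusted p of 0.0212 by the same exact test. Leaving out any other single library gave an adjusted p of 0.114 to 0.203 in that test.

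**Figure D2:**
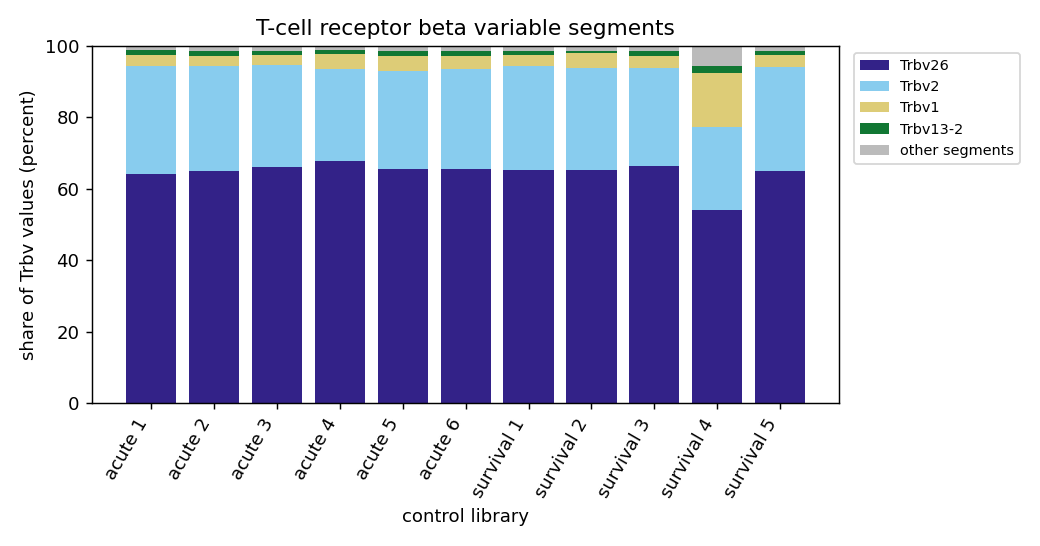
Share (percent) of T-cell receptor beta variable counts taken by Trbv26, Trbv2, Trbv1, Trbv13-2 and all other segments in each control library. Trbv26 and Trbv2 lead in all 11, and Trbv1 reaches 15.2% in survival replicate 4 only among these libraries.

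Between the arms 59 of 16070 genes were called (0.367%), 51 higher (0.317%) and 8 lower (0.0498%) in survival controls. Nearly all differences were small: 2 called genes differed by 1 log2 unit or more, and the median of the called-higher genes was 0.40. At an unadjusted p under 0.05 there were 2415 genes (15%), and 443 genes (2.76%) had no overlap between the arms, 293 of them higher in survival controls (1.82%). Of the 59 called genes, 58 did not overlap. The median over all tested genes was -0.0057. The count rested on the full set of libraries and on the scaling: leaving out 1 library gave 1 to 57 calls, and the deposited scaling gave 453, 447 higher and 6 lower in survival controls. Without any 1 of acute replicates 1 to 6 only 2, 2, 3, 3, 2 and 2 genes remained called, and without survival replicates 2, 4 or 5 there were 1, 2 and 24. Mki67 was called in every one of these 11 fits. Without both acute replicate 1 and survival replicate 4 limma called 0 genes, with 2045 at an unadjusted p under 0.05. All 59 kept their sign in each alternative fitted (58 of 58 with a length where length was used).

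Of 25 listed genes of mitosis, the separation of copied chromosomes into daughter cells, 3 were called, Mki67, Cenpf and Espl1, each higher in survival controls. All 25 had a positive difference. The median was 0.34, beside -0.0057 over all tested genes, 21 of 25 had an unadjusted p under 0.05 in this direction, and 8 did not overlap between the arms. Over all tested genes 0.317% were called higher, and 1.82% were higher with no overlap. An unadjusted p under 0.05 was found in 15% of them in either direction. The mean of the list lay at -0.189, -0.487, 0.0545, 0.0278, -0.0689 and -0.306 log2 units in acute replicates 1 to 6 and at 0.25, 0.377, 0.199, 0.0705 and 0.0727 in survival replicates 1 to 5. Acute replicates 2 and 6 were lowest, and the highest acute library (0.0545) was just below the lowest survival library (0.0705).

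Mki67, which encodes the Ki-67 protein that coats mitotic chromosomes, had the smallest p of all genes. It was at 14319, 12691, 16586, 16077, 16814 and 13932 in acute and at 23232, 26176, 22362, 26309.5 and 23173 in survival controls. Every survival library was above every acute one, and the difference was 0.69 (SE 0.076, adjusted p = 0.0068). Cenpf, a protein of the outer kinetochore, was at 2385, 1935, 2917, 2742, 2684 and 2063 in acute and 3786, 4856, 3854, 4471 and 3537 in survival controls, again without overlap, and rose by 0.75 (SE 0.11, adjusted p = 0.0343). Espl1, the separase that cuts cohesin and the third called member of the list, rose by 0.42 (SE 0.079, adjusted p = 0.0422). Cit, the citron kinase of cytokinesis, is not on the list and was singled out after its values were seen. Its difference was 0.51 (SE 0.061, adjusted p = 0.00963), from 757 to 875 in acute to 1059 to 1282 in survival controls. Other called genes of division outside the list were also singled out after their values were seen. They included Aspm, a spindle pole protein (0.64, SE 0.12, adjusted p = 0.0418), and Knl1 of the kinetochore (0.55, SE 0.1, adjusted p = 0.0418). The centrosome genes Cep192 (0.35, SE 0.05, adjusted p = 0.0327) and Cdk5rap2 (0.40, SE 0.074, adjusted p = 0.0422) were called higher as well. Cep78, another centrosome gene, was called lower (-0.35, SE 0.067, adjusted p = 0.0464). With a trend on transcript length removed from each library, none of Espl1, Aspm, Knl1, Cep192 or Cdk5rap2 was called. Espl1 then differed by 0.36 (limma adjusted p = 0.12), Aspm by 0.49 (adjusted p = 0.15) and Knl1 by 0.46 (adjusted p = 0.12). Cep192 differed by 0.25 (adjusted p = 0.117) and Cdk5rap2 by 0.20 (adjusted p = 0.183).

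The remaining genes of the mitosis list did not pass the test. Plk1, a mitotic kinase, was at 3035, 2325, 3201, 3073, 2808 and 2586 in acute and 3653, 3949.8, 3333, 3414 and 3659.5 in survival controls, with no overlap and a difference of 0.35 (SE 0.078, adjusted p = 0.0683). Cenpe, a kinetochore motor, differed by 0.48 (SE 0.10, adjusted p = 0.0577), Tpx2, a spindle assembly factor, by 0.39 (SE 0.091, adjusted p = 0.0762), and the kinase Aurkb by 0.36 (SE 0.096, adjusted p = 0.113). Top2a, which untangles DNA, differed by 0.37 (SE 0.1, adjusted p = 0.116) with overlapping groups.

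**Figure D3:**
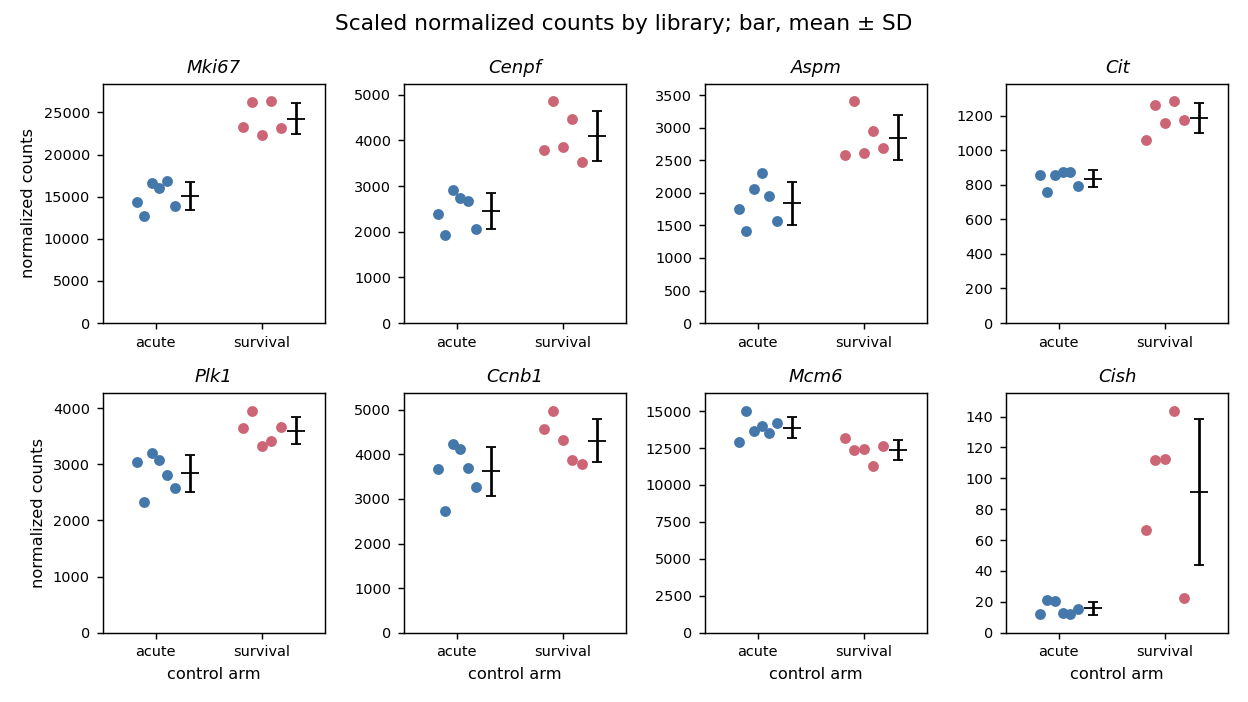
Normalized counts (linear axes from 0) of 8 genes in 6 acute (blue) and 5 survival (red) control libraries, each point 1 library, bars mean ± SD. Mki67, Cenpf, Aspm, Cit, Plk1 and Cish do not overlap between the arms, Ccnb1 does, and Mcm6 is lower on average in survival controls (12371 against 13880.2).

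Genes of DNA replication did not share this direction. Of 25 listed, 9 had a positive difference and none was called. An unadjusted p under 0.05 was found for 11 in the lower and 2 in the higher direction, beside 15% of all tested genes in either direction. The median of the list was -0.08. With the length trend removed the median was -0.03, and it ran from -0.12 (without survival replicate 2) to -0.05 (without acute replicate 2) when 1 library was left out and came to -0.02 with the deposited scaling. Mcm2, a subunit of the replicative helicase, was at 14339.8, 14921, 12479.9, 12429, 12046 and 13526 in acute and 11292, 10559, 10872, 11078 and 13208 in survival controls, with a difference of -0.22 (SE 0.069, adjusted p = 0.158). Only survival replicate 5 reached into the acute range. Ung, which removes uracil from DNA, differed by -0.39 (SE 0.10, adjusted p = 0.0991), while Rrm1, of ribonucleotide reductase, differed by 0.15 (SE 0.061, adjusted p = 0.258).

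The genes called higher also had long transcripts. The longest annotated transcript had a median of 9990 bases among the 50 called-higher genes with a length and 1816 among the called-lower, beside 3089 over all tested genes with one (93.7% of those tested). It reached 6000 bases in 38 of the 50 (76%), beside 12.7% of tested genes. Over 9770 genes with a mean of at least 100, the median difference went from -0.083 for transcripts under 1000 bases to 0.33 for those of 12000 bases or more, where 91.2% of 102 genes were higher in survival controls. The slope of a library's values on length, in log2 units per doubling, was 0.00419, -0.0446, -0.0349, -0.0308, -0.0176 and -0.0245 in acute replicates 1 to 6 and 0.0308, 0.0296, 0.0242, 0.0454 and 0.0182 in survival replicates 1 to 5. The arms did not overlap (difference 0.0543, p = 0.00433 by an exact two-sided permutation test, which 6 against 5 libraries cannot go below). This measure was chosen after the called genes had been seen. For GC content a rank correlation with a library's values was used in place of a slope, with a p of 0.623 by the same exact test. It varied widely within each arm, from -0.285 to 0.439 in acute and from -0.476 to 0.530 in survival libraries.

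Called genes of this length included Brca2, of homologous recombination (0.44, SE 0.063, adjusted p = 0.0327), the chromatin remodeller Atrx (0.25, SE 0.039, adjusted p = 0.0365), Nin of the centrosome (0.37, SE 0.058, adjusted p = 0.0365), Trrap, a cofactor of histone acetyltransferases (0.64, SE 0.12, adjusted p = 0.0464), and the ubiquitin ligase Rnf213 (0.54, SE 0.096, adjusted p = 0.0418). With the trend on length removed from each library these differences came to 0.27 for Brca2, 0.10 for Atrx, 0.22 for Nin, 0.44 for Trrap and 0.25 for Rnf213, and none of them was called. In this fit limma called 4 of 15057 genes (0.0266%), 2 higher (0.0133%) and 2 lower (0.0133%). They were Mki67 and Gm48274, a predicted locus of uncertain counts, on the higher side, and Neat1, a long nuclear RNA, and Psd4 on the lower. Mki67 then differed by 0.54 (adjusted p = 0.0386) and the median of the mitosis list was 0.36. Cenpf differed by 0.57 (adjusted p = 0.117) and Cit by 0.37 (adjusted p = 0.0589). Without acute replicate 1 the same fit called 0 genes, with 1835 at an unadjusted p under 0.05.

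**Figure D4:**
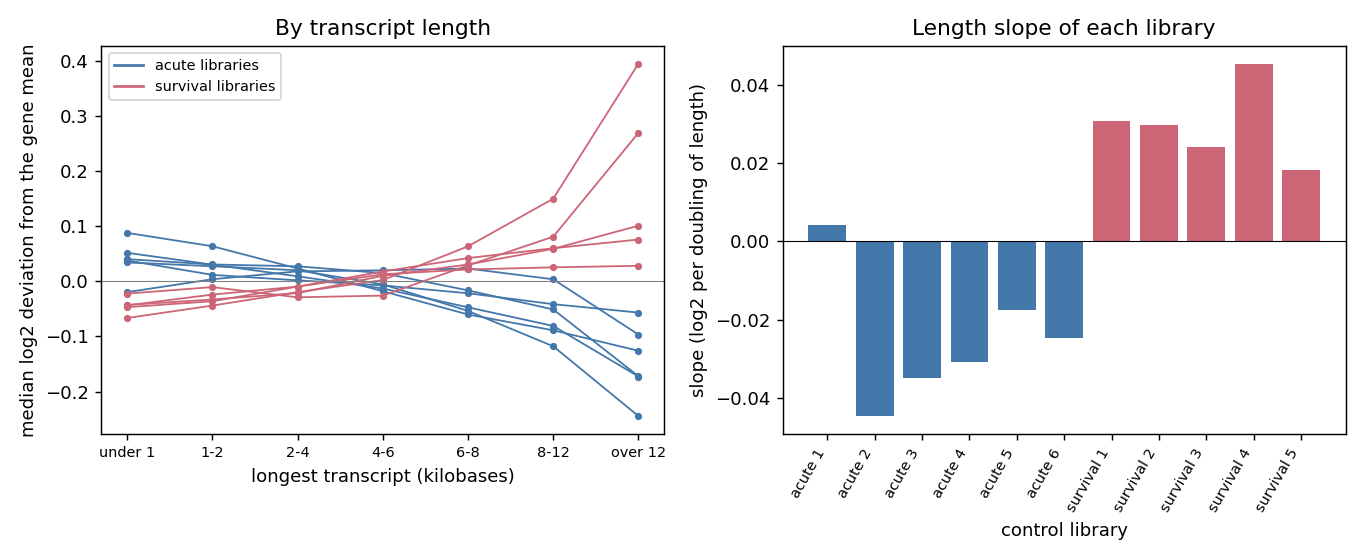
Left, median log2 deviation from the gene mean by length of the longest transcript (kilobases), 1 line per library, acute in blue and survival in red; right, the slope of each library on log2 length. The survival lines climb with length to as much as 0.40, and all 5 survival slopes lie above the 6 acute slopes.

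The largest called difference was in Cish, an inhibitor of cytokine signalling that STAT5 induces. It was at 12.1, 21.5, 20.6, 12.8, 12.4 and 15.2 in acute replicates 1 to 6 and at 66.2, 112, 112, 144 and 22.7 in survival replicates 1 to 5. Survival replicates 1 to 4 were far above the acute range, and survival replicate 5 was just above it. Cish rose by 2.26 (SE 0.39, adjusted p = 0.0418). The mean of 18 erythroid markers was -0.253, 0.446, 0.64, 1.51 and -0.886 in the same survival libraries, lowest in replicate 5 and highest in replicate 4 as for Cish, and -0.524, -0.253, -0.671, 0.0332, -0.158 and 0.117 in the acute ones. The part of erythroid cells in the Cish difference was not tested. Of 9 genes known as STAT5 targets, a list added with the values known, Cish alone was called. Socs2, another member, was at 22.8 and 14.1 on average, a difference of -0.70 (SE 0.25, adjusted p = 0.21).

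The other large rises were in A130050O07Rik (1.10, SE 0.20, adjusted p = 0.0422) and in Gm12000, Gm47673 and Gm17552, at 0.98, 0.83 and 0.77, which are predicted loci with uncertain counts. Bltp1, a bridge-like lipid transfer protein, rose by 0.63 (SE 0.12, adjusted p = 0.0422), and Iqgap3, a scaffold of dividing cells, by 0.53 (SE 0.10, adjusted p = 0.0464).

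The 8 genes called lower were all modest in size (-0.68 to -0.18). Eif1, which helps the ribosome pick the start codon, was at 6612, 6964, 7058, 6942, 6919 and 6922 in acute and 5850.0, 5363, 6145, 5549.8 and 6015 in survival controls, with no overlap, and differed by -0.26 (SE 0.042, adjusted p = 0.0381). C1qbp, a protein of the mitochondrial matrix, was at 3183, 3726, 3065, 3540.1, 3723 and 3637 and 2788, 2592, 3032, 2683 and 2659, and differed by -0.34 (SE 0.062, adjusted p = 0.0418). The others were Trmt112-ps2 (-0.68, SE 0.12, adjusted p = 0.0414), a pseudogene of uncertain counts, the adhesion receptor Pvr (-0.45, SE 0.084, adjusted p = 0.0422), Cep78 (-0.35, SE 0.067, adjusted p = 0.0464), the outer mitochondrial membrane protein Cisd1 (-0.28), Rbmxl1 (-0.19) and the myosin light chain Myl12a (-0.18).

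Among 41 gene lists, mitosis was the only one with a called member. The medians of the other 40 ran from -0.38 for neutrophil markers to 0.86 for platelet markers. Of 25 T-cell and thymocyte genes, 24 had a negative difference, 13 of them below an unadjusted p of 0.05, and the median was -0.10 (-0.03 with the deposited scaling). Over all tested genes, 15% had an unadjusted p under 0.05 in either direction, and the median was -0.0057. Of 4061 genes with transcripts of 2000 to 4000 bases and a mean of at least 100, 33.8% had a positive difference. Cd8a, the coreceptor of cytotoxic T cells, was at 12516, 11652, 11738, 12019.6, 12089.8 and 11539 in acute and 9777, 10806, 10739.5, 10878 and 10891 in survival controls, with no overlap and a difference of -0.17 (SE 0.04, adjusted p = 0.0833). The adhesion molecule Cd2 differed by -0.21 (SE 0.049, adjusted p = 0.0776) and Cd247, the zeta chain of the receptor, by -0.10 (SE 0.036, adjusted p = 0.223). Dntt, which adds bases at receptor joints, was at 20117, 23953, 22514, 22994, 22987 and 23208 in acute and 21247, 16762, 19802, 20171 and 17689 in survival controls, a difference of -0.25 (SE 0.064, adjusted p = 0.104). Tcf7 was at 53358 to 60274 in acute and 49596, 34386, 46449.8, 49295 and 50695 in survival controls, a difference of -0.27 (SE 0.088, adjusted p = 0.17).

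Of 25 MYC targets of ribosome biogenesis, 23 had a negative difference, 11 of these below an unadjusted p of 0.05, and the list's median was -0.11 (-0.05 with the deposited scaling). Beside this, 15% of all tested genes were below an unadjusted p of 0.05 in either direction, with a median of -0.0057. Rrs1, a ribosome assembly factor, differed by -0.27 (SE 0.079, adjusted p = 0.137). Ribosomal protein genes together held 7.27% ± 0.323 (SD, n = 6) of acute and 6.92% ± 0.133 (SD, n = 5) of survival counts (exact two-sided permutation p = 0.0628, adjusted 0.118). Without acute replicate 1, whose share of 6.65% was the lowest of all 11, the difference was -0.468 percentage points with an adjusted p of 0.0212 by the same exact test. Leaving out any other single library gave an adjusted p of 0.127 to 0.203 in that test. Of 20 genes that supply acetyl-CoA and citrate, 18 had a negative difference, 6 with an unadjusted p under 0.05 (15% of all tested genes in either direction). The median of these 20 was -0.07 (-0.04 with the length trend removed and -0.01 with the deposited scaling). Idh2, the mitochondrial isocitrate dehydrogenase, differed by -0.23 (SE 0.057, adjusted p = 0.0895) and Dlat, of pyruvate dehydrogenase, by -0.19 (SE 0.047, adjusted p = 0.0895). The NOTCH list was split, with 9 of 18 members positive and a median of 0.02 (-0.016 to 0.083 over the alternatives), and its member Heyl differed by 0.21 (SE 0.084, adjusted p = 0.256).

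The means of several host-cell marker lists differed widely between libraries of 1 arm, and none of the markers was called. Some abundant members varied little within an arm. Gzma, of the cytotoxic list, stood at 7879 ± 562 (SD, n = 6) in acute and 7811 ± 565 (SD, n = 5) in survival controls. Ighm, of the B-cell list, stood at 4356 ± 421 (SD, n = 6) and 3714 ± 220 (SD, n = 5). Whether host or leukemic cells made these transcripts was not tested. All 17 B-cell markers had a negative difference, with a median of -0.32. Their mean was at -0.0321, 0.517, 0.69, -0.244, 0.0595 and 0.196 in acute and 0.0957, -0.185, -0.546, -0.0022 and -0.549 in survival controls. Ms4a1, which encodes CD20, stood at 78.9 ± 23.6 (SD, n = 6) in acute and 39.8 ± 10.7 (SD, n = 5) in survival controls, a difference of -0.96 (SE 0.24, adjusted p = 0.0966). All 18 neutrophil markers were negative as well, with a median of -0.38 and none at an unadjusted p under 0.05. Ngp, a granule protein, was at 4023, 14316, 7028, 4792, 5993 and 7591 in acute and 5063, 7683, 6321, 1340.1 and 7406 in survival controls, highest in acute replicate 2 and lowest in survival replicate 4. The neutrophil markers median log2 difference came to -0.024 without survival replicate 4 and to -0.18 without acute replicate 2.

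Erythroid and platelet markers had mostly positive differences, none of them called. Of 18 erythroid markers 17 were positive, with a median of 0.42, and 4 had an unadjusted p under 0.05 (15% of all tested genes in either direction). Without survival replicate 4 the median was 0.095, and without survival replicate 5 it was 0.78. Hba-a1, a haemoglobin alpha gene, was at 3020.1, 3501, 2786, 5424, 5648 and 5372 in acute and 4367, 7987, 11920.1, 26464 and 3510.1 in survival controls. Survival replicate 4 was the highest, replicates 1 and 5 lay within the acute range, and the difference was 1.007 (SE 0.42, adjusted p = 0.281). Haemoglobin genes held 0.0722% ± 0.0286 (SD, n = 6) of acute and 0.211% ± 0.192 (SD, n = 5) of survival counts (exact two-sided permutation p = 0.0303, adjusted 0.118). That difference of 0.139 percentage points came to 0.0571 without survival replicate 4. All 6 tested markers of megakaryocytes and platelets were positive, with a median of 0.86. Ppbp, a platelet chemokine, stood at 41 ± 29.6 (SD, n = 6) in acute and 92.1 ± 31 (SD, n = 5) in survival controls, a difference of 1.30 (SE 0.40, adjusted p = 0.151). Xist, the RNA of the inactive X chromosome, was at 810.2 to 2074 and Ddx3y, of the Y chromosome, at 1127 to 1816 over the 11 libraries, so both were present in each. The interferon response list was balanced, with 14 of 27 members positive and a median of 0.0047. With a score of 130 host-cell markers as a covariate, 71 genes were called, 50 of the 59 among them. This single score pools cell types that moved in opposite directions. Survival replicate 4 scored 0.149, with neutrophil markers at -1.53 and erythroid markers at 1.51. The fit therefore cannot adjust for each cell type, and the part of host cells in the calls was not tested.

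**Figure D5:**
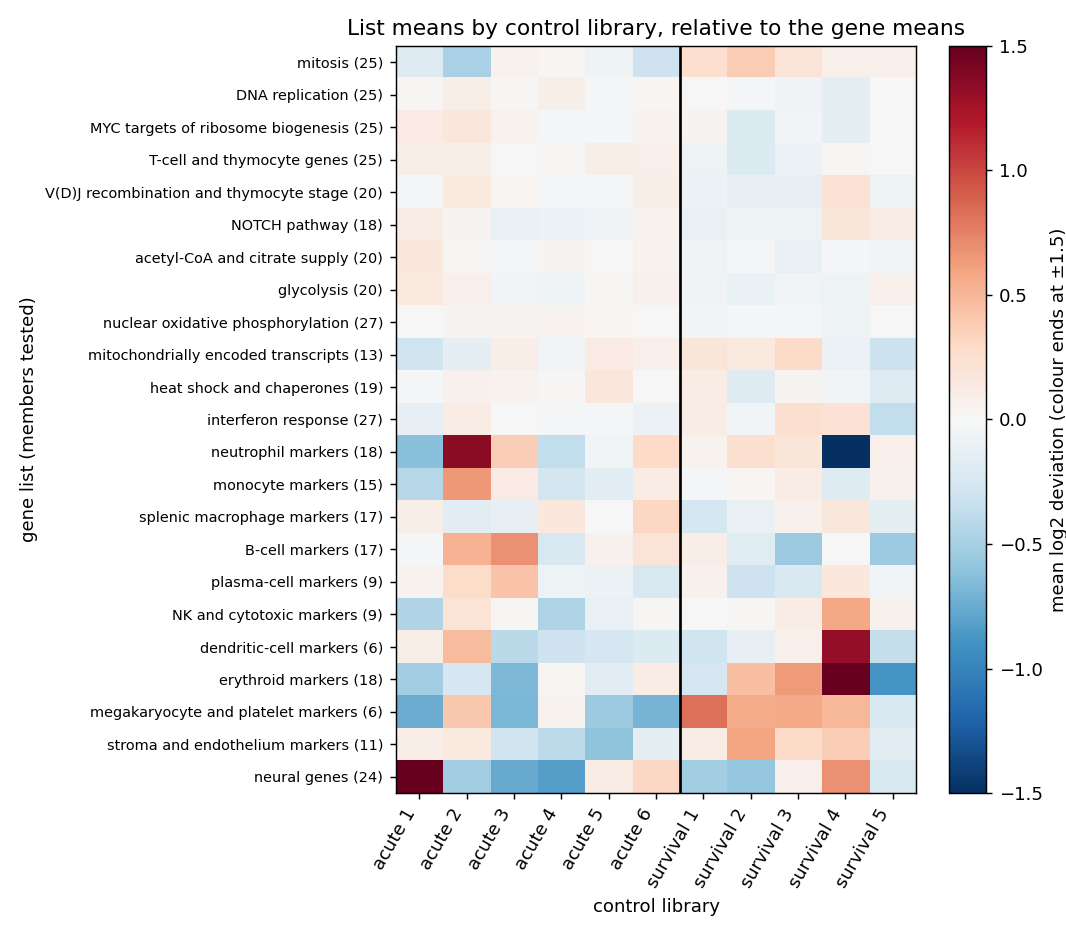
Mean log2 deviation from the gene mean for 23 gene lists (rows, with the number of members tested) in the 11 control libraries (columns, acute left of the line). Mitosis is above its mean in all 5 survival controls (0.0705 to 0.377), while the strongest colours of the host-cell rows belong to single libraries, such as -1.53 for neutrophil markers in survival replicate 4. The row of neural genes, whose source was not tested, is strongest in acute replicate 1 (2.27).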

How the data were processed

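Polyadenylated RNA from leukemic spleens was sequenced strand-specifically. The authors deposited 1 table per arm of DESeq-normalized counts, a signal per gene and library that is not whole and was scaled within each table. Per the submitters' processing notes, kallisto 0.46.0, genome build GRCm39 and DESeq were used. Annotation and filters: not given in the sources used here. Whole reads were not recovered, so no test on read counts was run.

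From the deposited signal, each of the 11 control libraries was scaled to the same total over 25120 shared symbols, and log2(value + 1) entered a linear model per gene (limma 3.58.1, R 4.3.3, 6 against 5 libraries, eBayes with a trend), on 16070 genes with 10 or more in at least 5 libraries. Adjusted p-values are Benjamini-Hochberg over all genes. Measures of whole libraries were compared by exact two-sided permutation (462 arrangements). Transcript lengths and GC content came from the GENCODE M21 annotation of another build, by symbol, and were used for nothing else. The length trend was removed per library with a spline of 4 degrees of freedom.

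On simulated data for this comparison over 16070 genes, the test found 42% of 50 genes changed 1.25-fold, 76% of those changed 1.5-fold, 86% of those changed 2-fold and 100% of those changed 4-fold, and 5 of 157 called genes had not been changed. The simulated noise was normal and independent between genes, and only genes with a mean of at least 50 were changed. The real libraries share a trend on length and include outlying ones, so these shares need not carry over.

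Groups follow the labels. The comparison, the 41 gene lists, the tests and the rule for named genes were chosen with earlier results of these data known. The rule named 8 fixed genes, the 20 highest means, up to 12 called rises and 12 called falls with a mean of at least 50 and no overlap, the highest-mean and called members of each list, and the leading beta segments. Genes named beyond it were chosen after their values were seen, as were the neural and STAT5 lists and the fits on length. Ms4a1, Hba-a1 and Ppbp are such genes. Not every gene that the rule named is described above. Of the highest-mean members, Hbb-bs of the erythroid list differed by 1.45 (limma adjusted p = 0.19). Itga2b of the platelet list differed by 0.98 (limma adjusted p = 0.104). Alternatives changed the scaling, pseudocount, filter, variance model, covariates and libraries. Figures were drawn with Python 3.11.15 and matplotlib 3.10.9.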

Additional observations from a re-analysis of the deposited data

Results flagged for a closer look

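Over both arms, 138 pairs of group and measure were checked for a library lying far from the others, and 22 had one. Chance marks about 1 in 20 independent pairs, but many of these measures share a library, and the neural genes were chosen after acute replicate 1 was seen, so the count cannot be read against that rate. Most belonged to acute replicate 1 or survival replicate 4.

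Acute replicate 1 was far from the other acute controls in 9 measures besides the mean of the neural genes (2.27). It was highest for Acly (8646), Notch1 (88690), Gabra6 (467.1) and Snap25 (789.9). It was lowest for Dntt (20120), Eif1 (6612), the share in the 10 most abundant genes (5.018%), the share in ribosomal protein genes (6.65%) and that in T-cell receptor beta segments (0.2505%). Acute replicate 2 was far above the others for Ngp (14320).

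Survival replicate 4 was lowest for the share in ribosomal protein genes (6.69%) and the mean of the neutrophil markers (-1.53). It was highest for the number of genes at 10 or more (16980), for Trbv1 (1388), and for the means of V(D)J recombination and thymocyte genes (0.212), MHC class II genes (0.789), NK and cytotoxic markers (0.58) and dendritic-cell markers (1.32). Survival replicate 2 was low for Tcf7 (34390), survival replicate 5 high for Mcm2 (13210) and survival replicate 1 low for Cd8a (9777).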

How the results depend on the processing

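The count of genes called between the arms (59) moved with the processing. It was 453 with the values as deposited (447 higher, 6 lower), which puts the median of all genes at 0.0577 in place of -0.0057, 33 with median-of-ratios size factors (29 higher, 4 lower), 38 with no filter on low values (35 higher, 3 lower) and 115 at a mean of at least 50 (100 higher, 15 lower). Without a trend in eBayes limma called 0 genes (2288 at an unadjusted p under 0.05). The replicate numbers of the titles showed no pairing of the samples: same-numbered libraries correlated at -0.196 to 0.00479 in their deviations. The sample descriptions number survival replicates 4 and 5 differently, and a pairing by those numbers was not checked. With the replicate block limma called 0 genes (1525 at an unadjusted p under 0.05), and with the block and the length trend removed 0 (1184). Leaving out 1 library gave 1 to 57 calls. Chosen after seeing the data, removal of the length trend gave 4, of length and GC trends 9, of the length trend without acute replicate 1 0 (1835), and leaving out acute replicate 1 and survival replicate 4 0 (2045). The cause was not tested.

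Of the first 20 genes by reads, 10 were among the first 20 per kilobase. Leaving out 1 library gave differences of -0.468 to -0.287 percentage points in ribosomal protein share, -0.0228 to -0.0141 in receptor beta share and 350.2 to 681 in genes at 10 or more. Each passed only without acute replicate 1 (adjusted exact permutation p = 0.0212). With any other single library left out, the adjusted exact permutation p was 0.114 to 0.203.

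Over 58 reported gene differences, 1173 alternative values kept direction and side of the threshold, 474 kept direction but were no longer called, 15 became called and 15 changed sign. Mki67 was called in 24 of 29 alternative fits, Cit in 21 and Cenpf in 15. Differences near 0 changed sign. Acly came to 0.02662 with the values as deposited. Hes1 came to 0.0375 with the values as deposited, 0.02767 and 0.02091 with the length or the length and GC trends removed, and 0.04623 with the block and length. Ptcra came to 0.05683 with the values as deposited, 0.002362 with the host-cell covariate, 0.05151, 0.05283, 0.0752 and 0.04282 in the fits on length, 0.01537 without acute replicate 1 and survival replicate 4, and ran from -0.05366 to 0.02783 when 1 library was left out.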
